A study of Homo sapiens with 6 samples.

Results

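The genes described here encode the proteins of the mitochondrial ribosome. They were taken by symbol, as protein-coding genes named MRPL or MRPS followed by a number and an optional letter, which gave 78 of the 60604 genes used. Of these, 49 carry the large subunit prefix MRPL and 29 the small subunit prefix MRPS. The rule uses the symbol and biotype and no measured value.

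RNA was sequenced from MIA PaCa-2 cells, a long-established line from a human pancreatic carcinoma, labelled wild type. Of 6 libraries, 3 came from cells given Huaier, a preparation of a medicinal fungus, at 10 mg/ml on top of black phosphorus (BP, an elemental phosphorus built of stacked layers) at 12.5 µg/ml. The other 3 came from cells given BP alone at 12.5 µg/ml. Both groups therefore carried BP, no cells without BP were analysed here, and the sources used here give no time of treatment. The labels do not state that a group's libraries were separate cultures, so a p-value measures the spread among these libraries and part of it may be technical.

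The mitochondrial ribosome makes the few proteins encoded by mitochondrial DNA, which are core subunits of the respiratory chain and of ATP synthase. Its RNAs are made inside the organelle, whereas all of its proteins are encoded in the nucleus, translated in the cytosol and imported. Some of these proteins descend from those of the bacterial ribosome, and many others have no bacterial counterpart and are specific to mitochondria. The small subunit decodes the mRNA, and the large subunit joins amino acids and releases the finished chain through its exit tunnel.

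Each library held between 15657593 and 17036565 counts on genes. BP+Huaier 3 stood apart from BP+Huaier 1 and 2: along the leading principal component of all genes, with 72.4% of the variance, its coordinate was 11.5, that of BP+Huaier 1 was 65.1 and that of BP+Huaier 2 was 66.0, against a range of -50.6 to -43.4 in BP. The epithelial keratin KRT8 and the mesenchymal filament VIM were abundant, while EPCAM, CDH1 and KRT7 had at most 5 counts in any library. Of 16 markers of leukocytes, fibroblasts, endothelium and exocrine or endocrine pancreas, 8 were at 0 in every library, among them PTPRC, CD3E, DCN, LUM, PRSS1 and INS, and 4 reached 1 CPM (read counts scaled to a common library size, with TMM factors). Their sum was 412 to 525 CPM in BP+Huaier and 557 to 614 CPM in BP, most of it COL1A2, which was not called. Of the markers, COL1A1 was called higher, at a mean of 5.92 CPM in BP+Huaier and 1.34 CPM in BP, and CDH5 lower, at 12.7 CPM in BP+Huaier and 19.0 CPM in BP (edgeR adjusted p = 8.9e-04 and 0.030). The leukocyte marker CD14 was also among the 4 that reached 1 CPM. Its mean was 28.8 CPM in BP+Huaier and 42.5 CPM in BP, and it was not called (edgeR adjusted p = 0.051). Every BP+Huaier value of CD14 lay below every BP value. The epithelial keratins KRT18 and KRT19 were called higher (edgeR adjusted p = 0.037 and 0.017), with BP+Huaier 3 the lowest of its group at 483 and 276 CPM. The part of these markers in the results was not tested.

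Between the groups, 11 of the 76 testable mitochondrial ribosomal protein genes rose with Huaier, 2 fell and 63 did not pass the test (edgeR quasi-likelihood test, Benjamini-Hochberg adjusted p under 0.05 over the 15022 genes tested). This is 17.1% of the 76, against 29.3% of all genes tested and 29.4% of protein-coding genes. Rises made up 14.5% of these genes and 14.4% of all genes, and falls 2.63% and 15%. The rises lay between 1.35-fold and 1.97-fold and the falls were 1.40-fold and 1.75-fold, so no gene of the family reached a 2-fold change. The median log2 fold change was 0.13, beside -0.02 over all genes and 0.03 over protein-coding genes, and 54 of the 76 values were above 0.

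The number of calls hung on single libraries. Without BP 1, BP 2, BP 3 or BP+Huaier 2, 1 gene remained, MRPS30, where 11.2%, 11.6%, 13.4% and 12.6% of all genes were called. Without BP+Huaier 1, 4 genes rose and 2 fell, with 23.2% of all genes called. Without BP+Huaier 3, 35 rose and 2 fell, with 59.8% of all genes called. Scaling by library size alone moved the median of all genes to -0.28 and that of the family to -0.14, with 2 rises and 8 falls. With that scaling 26.7% of all genes were called, 1051 higher and 2959 lower. Relative to the median of all genes, the family stood 0.151 above it with TMM and 0.137 above it with library size alone. This offset was not fixed: it was 0.0289 at a mean of at least 5 CPM, 0.0613 without BP+Huaier 1, 0.0949 with protein-coding genes only, 0.323 without BP+Huaier 3 and 0.402 with no filter on low counts.

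**Figure D1:**
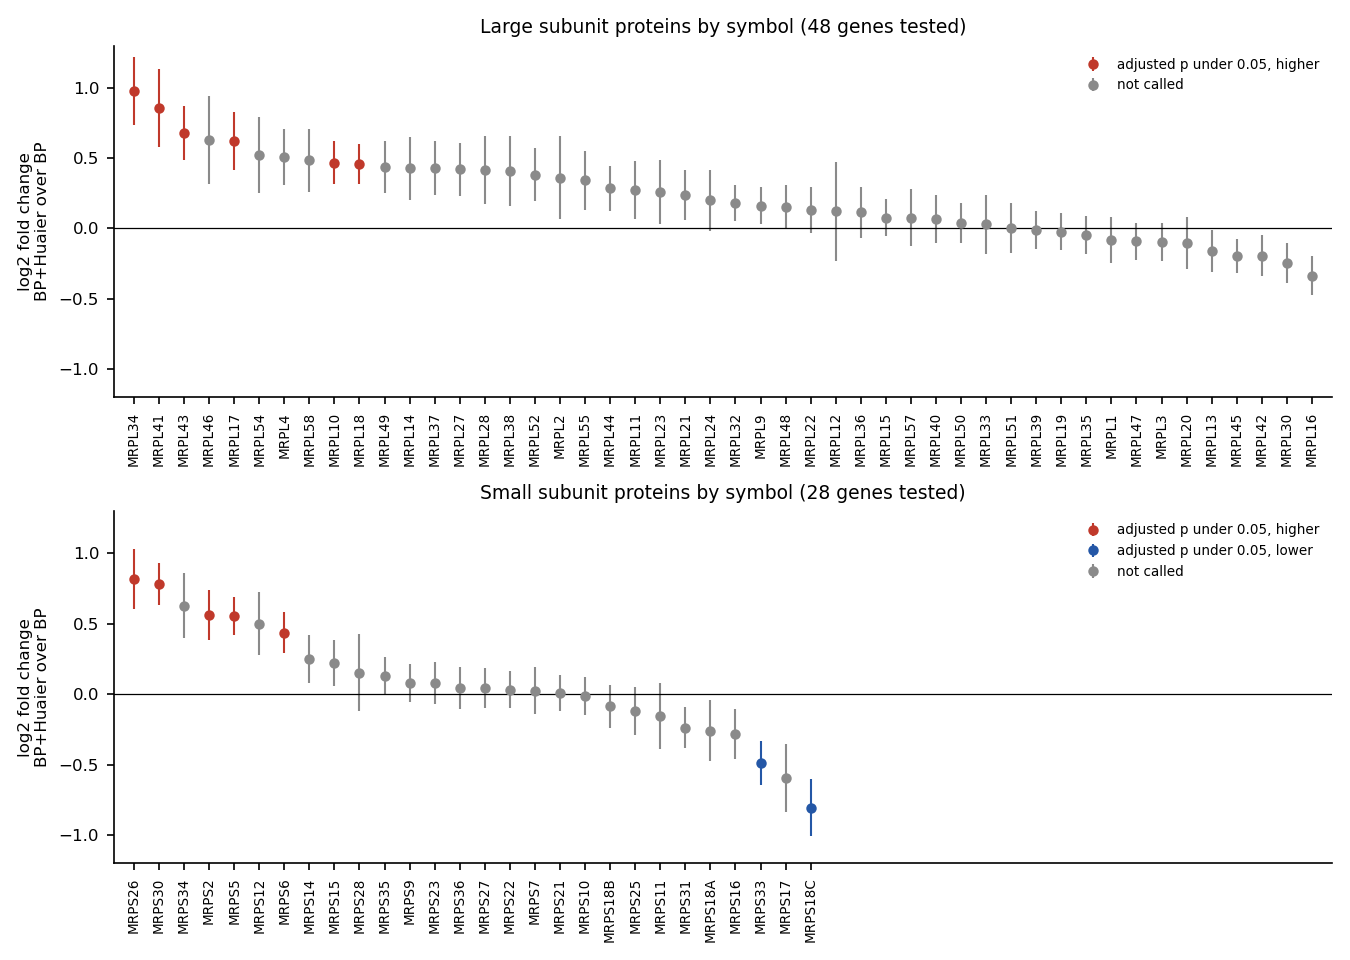
Log2 fold change (BP+Huaier over BP, vertical axis) of the 48 tested MRPL genes (top) and the 28 tested MRPS genes (bottom), ordered from the largest to the smallest value. Points are edgeR estimates, bars ± 1 standard error, red marks 6 and 5 rises and blue the 2 falls, both among the MRPS genes.

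Among large subunit genes 6 rose and 0 fell of 48, with a median log2 fold change of 0.19 (edgeR). This is 12.5% called, against 29.3% of all genes tested, of which 14.4% rose. At an unadjusted p under 0.05, 8 were higher and 1 lower. DESeq2 and limma-voom gave 0 falls, and limma-voom 3 rises. The absence of falls depended on the setting: library size alone gave 4, and a mean of at least 5 CPM and GC and length removal gave 1 each. The 6 that rose were MRPL34, MRPL41, MRPL43, MRPL17, MRPL10 and MRPL18.

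MRPL34 (ENSG00000130312.7, chr19:17292609-17306843, GRCh38), the counterpart of a bacterial large subunit protein, had 83.2, 76.4 and 41.6 CPM in the BP+Huaier libraries and 36.9, 30.4 and 34.8 CPM in the BP libraries. All 3 BP+Huaier values lay above all BP values, with BP+Huaier 3 close to the BP range. The log2 fold change was 0.98 ± 0.24 (SE, n = 3 per group; edgeR adjusted p = 0.018, range 8.6e-07 to 0.087 over 17 alternatives). Its exons shared 14.6% of their bases with ABHD8 on the opposite strand.

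MRPL41 (chr9:137551879-137552555), a mitochondria-specific protein that also binds BCL2, had 186, 147 and 80.9 CPM in BP+Huaier and 80.1, 61.6 and 86.5 CPM in BP. Here the groups overlapped, since BP+Huaier 3 lay below BP 3. The log2 fold change was 0.86 ± 0.28 (edgeR adjusted p = 0.045), and it was 1.14 without BP+Huaier 3.

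MRPL43, a mitochondria-specific protein, had 98.9, 89.5 and 58.8 CPM in BP+Huaier and 50.1, 49.9 and 54.5 CPM in BP. The groups did not overlap, and BP+Huaier 3 was again the lowest of its group. Its log2 fold change was 0.68 ± 0.19 (edgeR adjusted p = 0.030). SEMA4G on the opposite strand shared 32.7% of its exon bases, at 10 to 21 counts per library in BP+Huaier and 30 to 39 in BP.

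MRPL17, of bacterial type, had 115, 104 and 64.8 CPM in BP+Huaier and 59.3, 60.4 and 64.7 CPM in BP. BP+Huaier 1 and 2 were high, and BP+Huaier 3 was level with BP 3. Its log2 fold change was 0.62 ± 0.21 (edgeR adjusted p = 0.049).

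MRPL10, which anchors the stalk that binds the translation factors, had 131, 114 and 91.3 CPM in BP+Huaier and 78.8, 83.6 and 80.4 CPM in BP. MRPL18, of bacterial type, had 95.0, 99.7 and 76.8 CPM in BP+Huaier and 67.9, 61.9 and 68.0 CPM in BP. Neither pair of groups overlapped, and the log2 fold changes were 0.47 ± 0.15 and 0.46 ± 0.14 (edgeR adjusted p = 0.049 and 0.041).

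Of the small subunit genes 5 rose and 2 fell of 28, with a median log2 fold change of 0.04. This is 25% called and 17.9% higher, near the 29.3% and 14.4% of all genes tested. The rises were MRPS26, MRPS30, MRPS2, MRPS5 and MRPS6, and the falls MRPS18C and MRPS33.

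MRPS30 (ENSG00000112996.11, chr5:44808947-44820428) had 218, 274 and 221 CPM in BP+Huaier and 133, 153 and 128 CPM in BP. The groups lay well apart, and BP+Huaier 3 was not below the rest of its group. The log2 fold change was 0.78 ± 0.15 (edgeR adjusted p = 0.0066, range 8.3e-06 to 0.046 over 17 alternatives), and the gene passed the threshold under every one of the 17. At an adjusted p under 0.01 it was the only gene of the family to pass. Despite its symbol, the protein sits in the large subunit in the known structure and is specific to mitochondria. Its exons share no base with another gene of the table.

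MRPS26 (chr20:3046052-3048250), a mitochondria-specific protein, had 167, 125 and 93.0 CPM in BP+Huaier and 72.6, 62.9 and 82.5 CPM in BP. The groups did not overlap, and BP+Huaier 1 was the highest and BP+Huaier 3 the lowest of its group. On the log2 scale the difference was 0.82 ± 0.21 (edgeR adjusted p = 0.021).

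MRPS2, MRPS5 and MRPS6 are counterparts of bacterial small subunit proteins. MRPS2 had 236, 198 and 147 CPM in BP+Huaier and 124, 133 and 136 CPM in BP. MRPS5 had 139, 140 and 117 CPM in BP+Huaier and 89.3, 86.8 and 93.0 CPM in BP. MRPS6 had 53.7, 55.4 and 45.2 CPM in BP+Huaier and 37.2, 42.0 and 34.8 CPM in BP. In all 3 genes the groups were separate and BP+Huaier 3 was the lowest of its group. The log2 fold changes were 0.56 ± 0.18, 0.56 ± 0.13 and 0.44 ± 0.15 (edgeR adjusted p = 0.043, 0.015 and 0.0496).

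MRPS18C (ENSG00000163319.11, chr4:83455932-83469735), 1 of 3 paralogs related to a single bacterial protein, had 5.45, 3.77 and 4.09 CPM in BP+Huaier and 7.09, 8.04 and 8.15 CPM in BP. All BP+Huaier values lay below all BP values, at a level among the lowest of the family. The log2 fold change was -0.81 ± 0.21 (edgeR adjusted p = 0.019). ABRAXAS1 on the opposite strand shared 40.2% of its exon bases and had 83, 89 and 134 counts in BP+Huaier and 152, 219 and 122 counts in BP, so the value is uncertain to that extent. MRPS33, a mitochondria-specific protein, had 23.1, 19.2 and 16.9 CPM in BP+Huaier and 26.1, 28.8 and 28.1 CPM in BP. The groups did not overlap (log2 fold change -0.49 ± 0.16, edgeR adjusted p = 0.045).

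**Figure D2:**
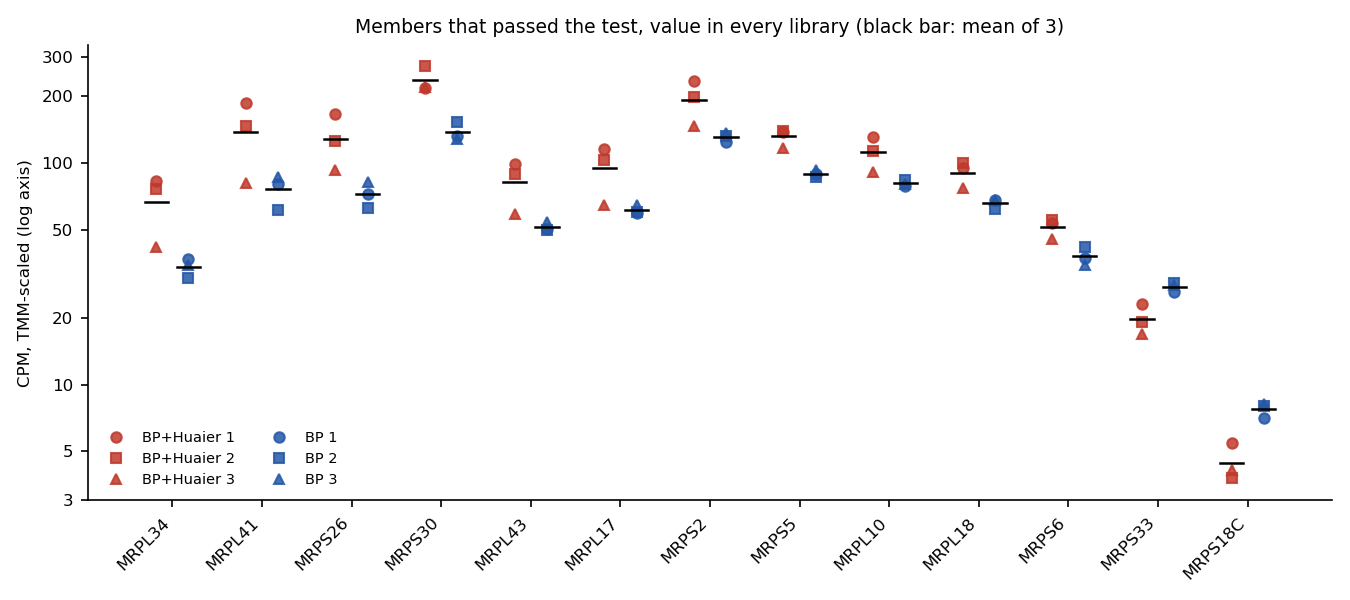
CPM (TMM-scaled, log axis) of the 11 genes that rose and the 2 that fell in each library, BP+Huaier in red and BP in blue, with 1 symbol per library number and black bars at the mean of 3. BP+Huaier 3 (red triangles) is the lowest of its group in each gene that rose apart from MRPS30.

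The other paralogs of MRPS18C did not pass the test. MRPS18A, which sits in the large subunit, had 29, 21.9 and 15.5 CPM in BP+Huaier and 25.8, 28.5 and 25.2 CPM in BP (log2 fold change -0.26 ± 0.22, edgeR adjusted p = 0.38), and RSPH9 on the opposite strand shared 50.9% of its exon bases. MRPS18B had 136, 107 and 96.9 CPM in BP+Huaier and 118, 118 and 124 CPM in BP (-0.08 ± 0.15, edgeR adjusted p = 0.70). The groups of both overlapped. The log2 fold changes of the 3 paralogs were thus all below 0 with TMM, and only that of MRPS18C was called; MRPS18B was at 0.03 without BP+Huaier 3.

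Per length, the most abundant large subunit transcripts were MRPL41, MRPL37, MRPL51 and MRPL18, at 184, 103, 67.7 and 56.9 CPM per kilobase over all libraries. MRPL41 stood at 237 CPM per kilobase in BP+Huaier and 131 in BP, first of its subunit. MRPL37 had 371, 319 and 217 CPM in BP+Huaier and 222, 215 and 236 CPM in BP, and the groups overlapped (log2 fold change 0.43 ± 0.19, edgeR adjusted p = 0.12). MRPL51 averaged 94.1 ± 15.4 CPM in BP+Huaier and 93.9 ± 15.4 CPM in BP (SD, n = 3 each; edgeR adjusted p = 0.99), and the sign of its difference changed with the scaling.

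The most abundant small subunit transcripts per length were MRPS26, MRPS34, MRPS35 and MRPS18B, at 98.9, 73.4, 68.0 and 66.3 CPM per kilobase. MRPS34, a mitochondria-specific protein, had 124, 102 and 66.7 CPM in BP+Huaier and 62.3, 51.7 and 74.8 CPM in BP, so that BP+Huaier 3 fell inside the BP range (log2 fold change 0.63 ± 0.23, edgeR adjusted p = 0.069). MRPS35 averaged 137 ± 8.15 CPM in BP+Huaier and 125 ± 12.5 CPM in BP (SD, n = 3 each), with overlapping groups (edgeR adjusted p = 0.48).

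Genes with a known separate role were also read. MRPL12, the stalk protein that also binds the mitochondrial RNA polymerase, had 37.4, 27.3 and 14.9 CPM in BP+Huaier and 29.3, 14.6 and 29.2 CPM in BP. It varied more within each group than between them (log2 fold change 0.12 ± 0.35, edgeR adjusted p = 0.81), and 69.5% of its exon bases were shared with another annotated gene on the same strand that had 0 counts. MRPL58, a peptidyl-tRNA hydrolase that rescues stalled ribosomes, had 66.2, 53.8 and 35.3 CPM in BP+Huaier and 37.2, 32.1 and 41.7 CPM in BP. BP+Huaier 1 and 2 were high, BP+Huaier 3 was inside the BP range, and the gene was not called (0.48 ± 0.22, edgeR adjusted p = 0.13).

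MRPS12, which lies at the decoding centre, averaged 87.8 ± 28.1 CPM in BP+Huaier and 62.0 ± 6.05 CPM in BP (edgeR adjusted p = 0.12). MRPL44, which carries a fold of the ribonuclease III family, averaged 36.7 ± 4.04 CPM in BP+Huaier and 30.1 ± 4.36 CPM in BP (edgeR adjusted p = 0.20). MRPL3, of bacterial type, averaged 131 ± 10.7 CPM in BP+Huaier and 140 ± 11.5 CPM in BP (SD, n = 3 each; edgeR adjusted p = 0.62). The groups overlapped in all of these.

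Across the 76 genes, the 3 BP+Huaier values lay above all BP values for 11 genes, below them for 6 and overlapped for 59. Over all genes tested, groups were separate for 46.8%, with BP+Huaier above for 21.9% and below for 24.9%. Of the separate ones, 10 were called higher and 2 lower, while MRPL32 lay above and MRPL45, MRPL16, MRPS31 and MRPS17 below without passing the test (edgeR adjusted p = 0.30, 0.25, 0.093, 0.23 and 0.092).

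Grouped by ancestry, 7 of 42 tested proteins of bacterial type rose and 1 fell, with a median log2 fold change of 0.15. Of 33 mitochondria-specific proteins 4 rose and 1 fell, with a median of 0.13. In this grouping MRPS18C was counted as bacterial type. Its paralogs MRPS18A and MRPS18B, neither of them called, were counted as mitochondria-specific although related to the same bacterial protein. Rises made up 16.7% of the bacterial-type and 12.1% of the mitochondria-specific genes, near the 14.4% of all genes tested. MRPS36, now placed in the oxoglutarate dehydrogenase complex and not in the ribosome, was counted in neither class and was not called (log2 fold change 0.04).

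The comparison of the subunits depended on the measure. In summed counts, the large subunit reached 3549, 3186 and 2383 CPM in BP+Huaier and 2571, 2477 and 2614 CPM in BP. The small subunit reached 2388, 2270 and 1824 CPM in BP+Huaier and 1824, 1836 and 1837 CPM in BP. In both TMM-scaled sums BP+Huaier 1 and 2 lay above BP, and BP+Huaier 3 lay below or level with the lowest BP library. This order depended on the scaling: the TMM factors were 0.85, 0.857 and 1.04 in BP+Huaier 1, 2 and 3 and 1.08 to 1.11 in BP. As a share of all counts of a library, the family held 0.504, 0.467 and 0.436% in BP+Huaier and 0.476 to 0.484% in BP. By that share BP+Huaier 2 lay below every BP library. The log2 fold changes of the large and small sums were 0.25 and 0.24, and scaled by total counts they were -0.03 and -0.04. The ratio of large to small, which no scaling of a library changes, was 1.49, 1.40 and 1.31 in BP+Huaier and 1.41, 1.35 and 1.42 in BP. The BP ratios fell within the range of the BP+Huaier ratios, with means of 1.40 ± 0.090 and 1.39 ± 0.040 (SD, n = 3 each), so no shift between the subunits was seen beyond the spread of the libraries.

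By the median over genes the subunits differed in BP+Huaier 1 and 2 and hardly in BP+Huaier 3. The mean ratio of sums showed no such difference. Large subunit genes had a median log2 ratio to the BP mean of 0.43, 0.25 and -0.11 in BP+Huaier 1, 2 and 3, and small subunit genes 0.20, 0.11 and -0.12. In BP 1, 2 and 3 the medians were 0.0082, -0.055 and 0.063 for large and -0.0076, -0.011 and 0.0084 for small subunit genes. With MRPS30 and MRPS18A counted by their place in the structure, and MRPS36 left out, 7 of 50 large subunit genes rose and 0 fell, and 4 of 25 small subunit genes rose and 2 fell. Called genes were then 14% and 24%, against 29.3% of all genes tested. By this grouping the median log2 fold changes were again 0.19 and 0.04.

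Library by library, and with TMM scaling, the genes of the family above all BP libraries numbered 53, 46 and 14 in BP+Huaier 1, 2 and 3. The numbers below all BP libraries were 12, 12 and 34. Over all genes the shares above were 40.9%, 40.7% and 37.3% and the shares below 45.9%, 45.2% and 39.1%. BP+Huaier 3 held the lowest value of its group for 61 of the 76 genes and BP+Huaier 1 the highest for 50. The median coefficient of variation was 19.4% within BP+Huaier and 7.87% within BP, and it was larger in BP+Huaier for 61 of 76 genes. What set BP+Huaier 3 apart was not tested. In RNA from whole cultures, fewer cells of a type and less RNA per cell cannot be told apart.

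**Figure D3:**
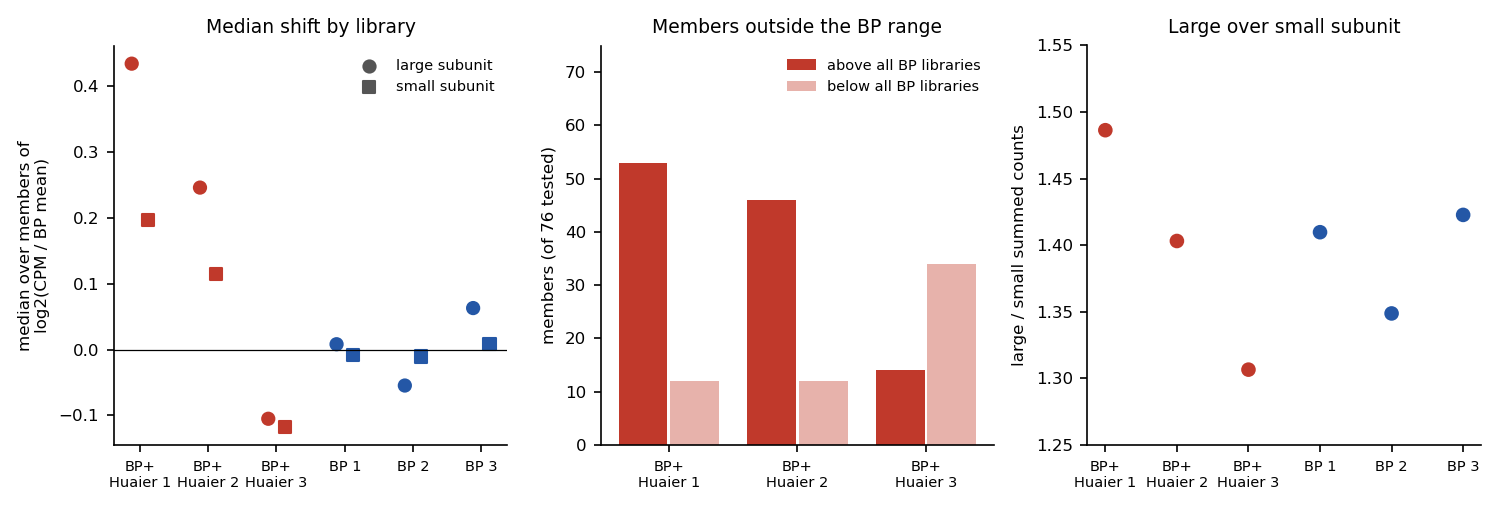
Left, median over the large (circles) and small (squares) subunit genes of log2 CPM relative to the BP mean, per library. Middle, number of the 76 genes above (dark) and below (light) all BP libraries, 53 and 12 in BP+Huaier 1, 46 and 12 in BP+Huaier 2, and 14 and 34 in BP+Huaier 3. Right, ratio of summed large to small subunit counts per library, on an axis that starts above 0, with BP inside the range of BP+Huaier.

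The genes that changed also differed in base composition, as did the called genes of the whole table. Median GC content was 51.8% in the genes that rose, 40.3% in those that fell and 47.2% in those not called. Over all genes tested it was 56.6%, 46.4% and 48.5%. Of the 38 genes with the higher transcript GC content (47.7 to 71.9%) 9 rose and 0 fell, with a median log2 fold change of 0.38, and of the 38 with the lower GC content (33.5 to 47.6%) 2 rose, MRPS30 and MRPS6, and 2 fell. The 76 genes share the same libraries and are not replicates. Across them, log2 fold change and GC content had r = 0.45 (rho = 0.46), against r = 0.26 (rho = 0.33) over all genes. Single libraries differed in this relation. For the log2 ratio to the BP mean r was 0.61, 0.39 and 0.0053 across the BP+Huaier libraries 1, 2 and 3. Within BP, the log2 ratio of each library to the other 2 had r = 0.094, -0.57 and 0.63 in BP 1, 2 and 3. These ratios set the BP libraries against each other, so a difference in sign is built in and only the sizes can be read. The part of GC content in the rises was tested no further than by the fit that removes its trend.

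With a trend on GC content and length removed in each library, 15 genes rose and 2 fell, with 38.1% of all genes called. Of the 13 genes called before, 10 were called. The log2 fold change of MRPS18C was then -0.61, that of MRPS33 -0.32 and that of MRPS2 0.21, and these 3 no longer passed (edgeR adjusted p = 0.062, 0.17 and 0.12). MRPL16, a large subunit protein of bacterial type, and MRPS18A were the genes then called lower. The medians became 0.198 for the large and 0.202 for the small subunit, so the difference between the subunit medians was no longer there. The log2 fold change was then 1.05 for MRPS30 and 0.84 for MRPL34 (edgeR adjusted p = 0.0011 and 0.0035), inside the ranges over alternatives given above.

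**Figure D4:**
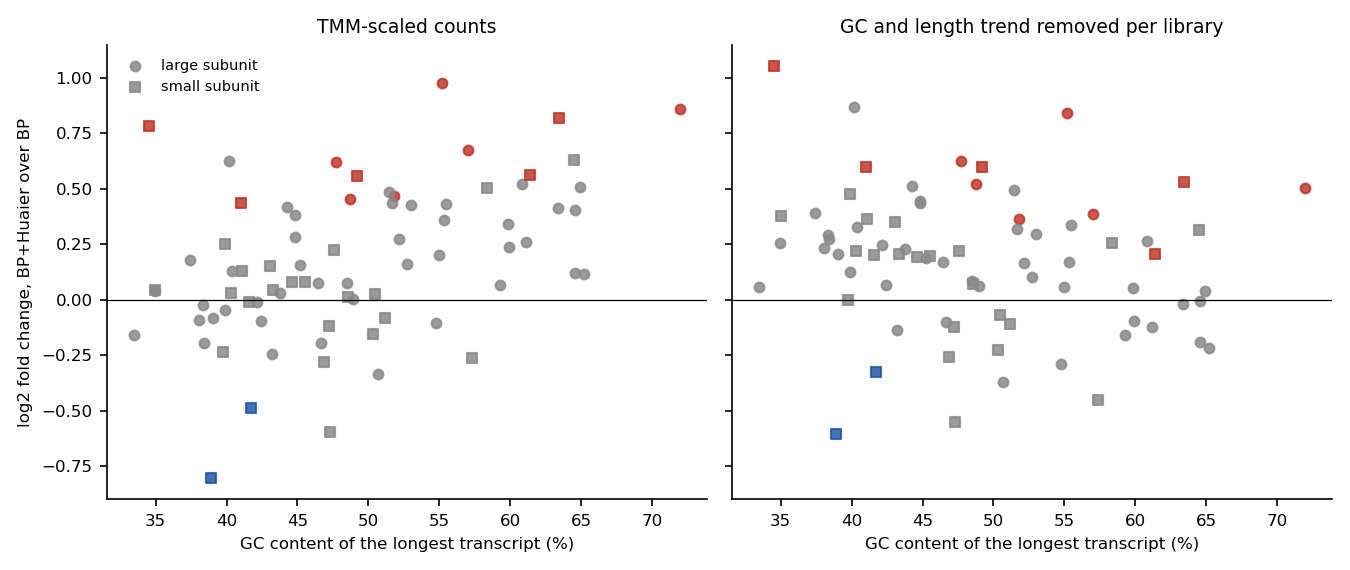
Log2 fold change (BP+Huaier over BP) against transcript GC content (percent) for large (circles) and small (squares) subunit genes, before (left) and after (right) removal of a GC and length trend per library. In both panels red and blue mark the 11 rises and 2 falls of the fit without removal; r is 0.45 on the left and -0.19 on the right.

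Promoters were read for the motifs of 3 factors tied to mitochondrial gene programmes, GABP, YY1 and NRF1. RefSeq promoter windows (GRCh38.p14, 250 bases before to 50 after the start) matched 69 of the 78 genes. The letters CCGGAAG, bound by the ETS family that includes GABP, stood on either strand in 28 of them (40.6%), against 19.1% of 10087 promoters of tested protein-coding genes and 10.6% of all 27305 promoters. The letters AAGATGGC, bound by YY1, stood in 20 (29%), against 5.31% and 3.0%, and in 15 of the 20 a match reached past the transcription start. The 10-letter NRF1 motif stood in 6 (8.7%), against 11.4% and 6.05%. No match of 1 motif shared bases with that of another. Of the genes that rose, 2 of 10 had the ETS letters, 1 of 10 the YY1 letters and 1 of 10 the NRF1 motif, and of those not called 24, 18 and 5 of 55.

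The 100 bases before the start are shown for 5 genes that passed the test, to set a matched promoter beside unmatched ones; capitals mark a match, and lower case all other bases. MRPL17 (chr11:6683341-6683440, minus strand) holds the NRF1 motif, MRPS26 (chr20:3045952-3046051, plus strand) the ETS letters on the opposite strand, and MRPS30 (chr5:44808847-44808946, plus strand), MRPL41 (chr9:137551779-137551878, plus strand) and MRPS33 (chr7:141014680-141014779, minus strand, between exons of the deposited gene model) none of the 3 in these bases.
MRPL17: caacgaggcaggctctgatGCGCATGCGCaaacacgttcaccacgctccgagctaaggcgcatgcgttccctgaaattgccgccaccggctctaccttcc
MRPS26: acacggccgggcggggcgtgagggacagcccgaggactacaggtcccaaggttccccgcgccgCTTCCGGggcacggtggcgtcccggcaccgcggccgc
MRPS30: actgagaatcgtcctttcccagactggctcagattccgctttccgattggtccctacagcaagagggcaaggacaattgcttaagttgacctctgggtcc
MRPL41: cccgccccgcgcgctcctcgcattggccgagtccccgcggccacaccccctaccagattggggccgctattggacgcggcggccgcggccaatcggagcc
MRPS33: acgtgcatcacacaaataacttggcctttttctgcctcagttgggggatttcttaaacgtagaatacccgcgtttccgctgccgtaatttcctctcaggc
The unmatched MRPS30 window precedes the gene that was called under all 17 alternatives, and its YY1 letters lie outside the bases shown. A match here is a description of letters and not of binding.

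Among regulators of mitochondrial gene programmes, 3 of 8 tested rose and the other 5 did not pass. The 3 rises are 37.5% of a list of only 8 genes. Over all genes tested, 14.4% were called higher and 29.3% in either direction. MYC, a growth regulator, had 475, 624 and 375 CPM in BP+Huaier and 197, 194 and 198 CPM in BP (log2 fold change 1.32 ± 0.19, edgeR adjusted p = 0.0024). ESRRA, a nuclear receptor of mitochondrial biogenesis, had 189, 157 and 106 CPM in BP+Huaier and 81.6, 66.8 and 87.7 CPM in BP (0.94 ± 0.22, edgeR adjusted p = 0.013). YY1 had 255, 290 and 276 CPM in BP+Huaier and 193, 194 and 183 CPM in BP (0.53 ± 0.13, edgeR adjusted p = 0.016). All 3 had separate groups. The GABP subunits GABPA and GABPB1, NRF1 and the coactivators PPRC1 and PPARGC1B were not called, with log2 fold changes of -0.19, 0.22, 0.22, 0.31 and 0.06 (edgeR adjusted p = 0.54, 0.34, 0.31, 0.10 and 0.83). Some of these calls turned on a setting: without BP+Huaier 3, GABPA was called lower at -0.47 and PPRC1 higher at 0.32 (0.0090 and 0.018), and after removal of the GC and length trend GABPB1 was called higher at 0.42 (0.039).

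Genes of the factors that build and serve the ribosome were read beside it. Of 29 tested genes of ribosome assembly and rRNA processing 2 rose, NSUN4 and METTL17 of the methyltransferase families, and 7 fell. DDX28, an RNA helicase of large subunit assembly, had 14, 7.39 and 8.47 CPM in BP+Huaier and 27.5, 22.5 and 27.6 CPM in BP (log2 fold change -1.38 ± 0.24, edgeR adjusted p = 0.0049). MTG1, a GTPase of large subunit assembly, had 3.21, 3.03 and 3.75 CPM in BP+Huaier and 7.74, 7.88 and 8.03 CPM in BP (-1.24 ± 0.19, edgeR adjusted p = 0.0028). MTERF1, of the MTERF family of mitochondrial DNA-binding proteins, averaged 3.28 ± 0.73 CPM in BP+Huaier and 5.73 ± 0.27 CPM in BP (-0.80, edgeR adjusted p = 0.027). BP+Huaier was below BP in every library of these 3 genes.

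Of 15 translation factors 3 passed the test, and these fell. GUF1, the counterpart of the bacterial factor LepA, had 12.2, 12.5 and 16.7 CPM in BP+Huaier and 29.1, 27.7 and 22.8 CPM in BP (log2 fold change -0.94 ± 0.18, edgeR adjusted p = 0.0068). GFM1, the elongation factor that moves the ribosome along the mRNA, fell by 0.49 on the log2 scale and MRRF, the ribosome recycling factor, by 0.41 (edgeR adjusted p = 0.041 and 0.045). Of 12 genes of mitochondrial transcription and RNA processing 1 rose, POLRMT, the mitochondrial RNA polymerase, at 352, 286 and 206 CPM in BP+Huaier and 149, 143 and 164 CPM in BP (0.89 ± 0.20, edgeR adjusted p = 0.012). MTERF2, TRMT10C, a subunit of mitochondrial ribonuclease P, and PNPT1 fell (-1.04, -0.77 and -0.66; edgeR adjusted p = 0.045, 0.0092 and 0.024).

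Of 5 ribosomal proteins that carry other symbols, PTCD3, a small subunit protein with pentatricopeptide repeats, fell to 64.6, 69.1 and 113 CPM in BP+Huaier, against 140, 150 and 127 CPM in BP (log2 fold change -0.76 ± 0.21, edgeR adjusted p = 0.028). The remaining 4 did not pass. Over these lists together, regulators aside, 3 genes rose and 14 fell of 61 tested, or 27.9% called, a share near the 29.3% of all genes tested. With each BP library left out in turn there were 0 to 2 rises and 3 to 5 falls. Leaving out BP+Huaier 1 gave 2 rises and 10 falls, leaving out BP+Huaier 2 gave 2 and 4, and leaving out BP+Huaier 3 gave 20 and 21.

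As other large families, the cytosolic ribosomal proteins had 1 call in 83 tested, a rise of RPL22L1, with a median log2 fold change of 0.23. Complex I of the respiratory chain had 1 rise, NDUFS7, and 1 fall, NDUFC2, of 37, with a median of 0.16. Called genes were 1.2% of the cytosolic ribosomal proteins and 5.41% of complex I, against 29.3% of all genes tested. The products of the mitochondrial genome could not be set beside the ribosome: all 37 genes of the mitochondrial chromosome, including 2 rRNAs and 13 mRNAs, are listed at 0 in every library.

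Some genes of the family could not be read. MRPL53 had 0 counts in every library, below the 0.160 to 0.222 CPM that 3 counts stand for, and MRPS24 had 3, 4 and 1 counts in BP+Huaier and 3, 1 and 9 in BP. The exons of MRPL53 shared 72.8% of their bases with CCDC142 on the same strand, which had 108, 54 and 105 counts in BP+Huaier and 275, 237 and 231 in BP, and those of MRPS24 23.2% with the readthrough gene URGCP-MRPS24. In all, 41 of the 78 genes shared exon bases with another gene, 15 of them more than 20% with 1 gene, and 6 of the 13 called genes were among the 41. The sources used here do not state how the counting treated strand and overlap, and shared bases leave these values uncertain. Of the 37 genes with no shared exon base 6 rose and 1 fell, with a median log2 fold change of 0.13. The 79 pseudogenes of the family held 18 to 47 counts per library in BP+Huaier and 40 to 55 in BP, or 0.021 to 0.069% of the counts of the family.

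**Figure D5:**
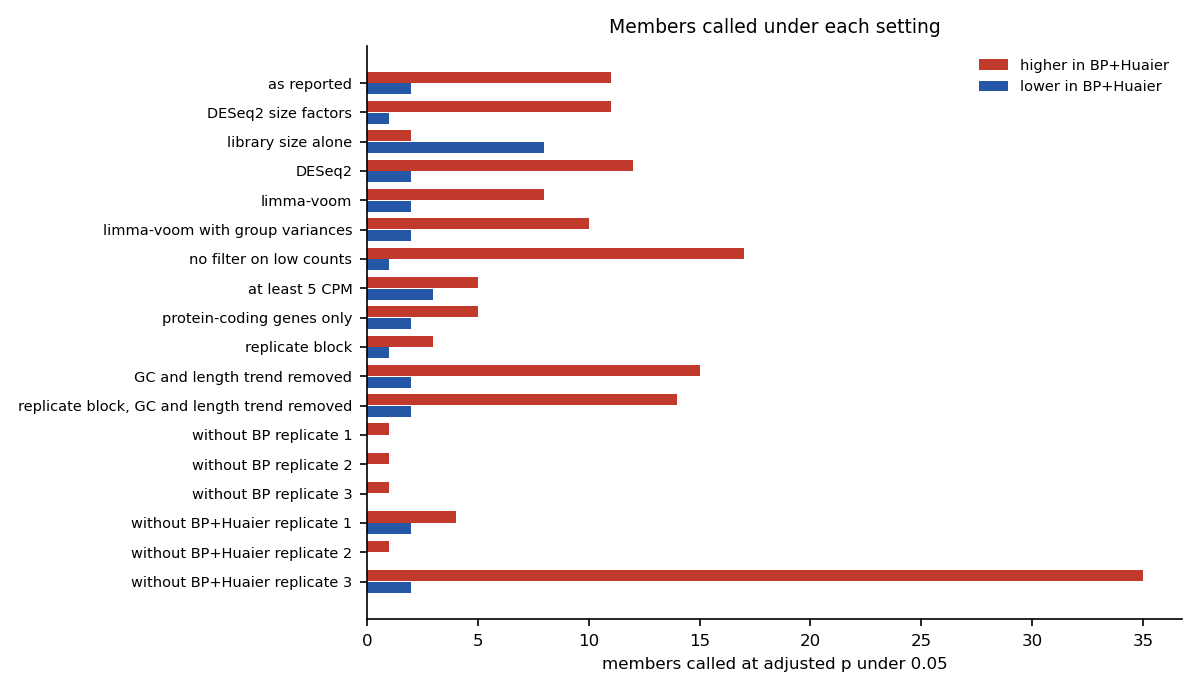
Number of the genes called higher (red) and lower (blue) in BP+Huaier under the fit as reported and under each of 17 other settings (edgeR unless DESeq2 or limma-voom is named). The counts lie between 1 and 35 higher and between 0 and 8 lower.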

How the data were processed

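RNA-seq was done on 6 libraries of MIA PaCa-2 cells as 150 bp pairs, per the labels' protocols. The authors deposited raw counts, whole numbers that sum differently in each library, beside each gene's position and exon length. The submitters' processing notes name fastp 0.20.0, HISAT2 2.1.0, featureCounts 1.6.1 and the build GRCh38. Not given in the sources used here are the annotation release and how strand, multi-mapped reads and overlaps were treated. Of the rows, 44 second copies of pseudoautosomal genes and 3 broken lines were left out. Symbols matched 99.77% of the IDs, and biotype and GC content came from GENCODE 29.

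The counts were fitted with edgeR 4.0.16 (R 4.3.3) by filterByExpr on group, TMM scaling and the robust quasi-likelihood test on group alone, with Benjamini-Hochberg adjustment over all 15022 tested genes. CPM are TMM-scaled, errors of means are SD over 3 libraries, and errors of log2 fold changes are standard errors derived from the test statistic. Depth was 15657593 to 17036565 counts per library, and the common biological coefficient of variation was 18.1%. The genes of the family, the related lists, the classes by ancestry and structure and the marker list were chosen with earlier results of these data known. Named genes are, per subunit, up to 6 called rises and falls, the 4 highest per kilobase, the MRPS18 paralogs, MRPL12, MRPL58, MRPS12, MRPL3 and MRPL44, and of each list the 3 largest called changes plus all tested regulators; any further gene was picked with its values in view.

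The settings tried were DESeq2 size factors, library size alone, DESeq2 1.42.0, limma-voom (limma 3.58.1) with and without group variances, no filter, protein-coding genes only, a mean of at least 5 CPM, the replicate block, GC and length offsets, each library left out, and an adjusted p under 0.01; grouping by structure and members without exon overlap were added after the data were seen. The labels do not say that replicate numbers pair the libraries. Correlations of same-numbered deviations were 0.0085, -0.056 and -0.28, and those of other pairs lay between -0.26 and 0.26. With 3 libraries per group these values cannot exclude a shared culture or day. Steps were tested on simulated counts. Protein sequences were not used here.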

Additional observations from a re-analysis of the deposited data

How the results depend on the processing

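Of the 24 named genes of the family under 17 alternatives each, 275 of 408 values kept their direction and side of the threshold, 98 lost the call, 20 gained one and 15 changed sign. In the order all, large and small subunit, the calls as reported were 11, 6 and 5 higher and 2, 0 and 2 lower, with 3 higher and 14 lower in the related lists and 2160 higher and 2246 lower over all genes. The cause of the shifts below was not tested, except that fewer libraries entered where 1 was left out.

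Library size alone gave 2, 1 and 1 higher and 8, 4 and 4 lower, with 1 higher in the lists and 1051 over all genes. An adjusted p under 0.01 gave 1, 0 and 1 higher and 0, 0 and 0 lower (at an unadjusted p under 0.05, 14 higher and 4 lower by edgeR), 0 and 4 in the lists, and 826 and 810 over all genes. At least 5 CPM gave 5, 2 and 3 higher, 1 large subunit gene lower and 1361 of all genes lower. No filter gave 17 and 11 higher (all and large), 1 and 1 lower (all and small) and 9 higher in the lists. Protein-coding genes only gave 5, 2 and 3 higher. DESeq2 size factors gave 1 and 1 lower (all and small), and limma-voom 3 large subunit genes higher. GC and length removal gave 1 large and 1 small subunit gene lower, also with the block, and 5 higher in the lists. DESeq2 gave 7 and limma-voom with group variances 5 higher in the lists. Genes with no exon overlap, chosen after seeing the data, gave 6 and 2 higher and 1 and 1 lower (all and small). Subunit by structure moved no count beyond 1.5 times.

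The replicate block was fitted although pairing by replicate number is not stated in the labels. It gave 3, 1 and 2 higher, 1 and 1 lower (all and small), 8 lower in the lists and 1357 higher over all genes. Of the 3 BP+Huaier libraries, none correlated best with the BP library of its own number, which does not settle whether they were paired.

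Leaving out 1 library in turn gave 1 to 35 higher and 0 to 2 lower genes of the family, 0 to 26 higher of the large subunit, 1 to 9 higher and 0 to 2 lower of the small subunit, 0 to 20 higher and 3 to 21 lower in the lists, and 810 to 4452 higher and 909 to 4793 lower over all genes. The difference of log2 large over small sums was 0.0035 as reported and 0.12 by medians over genes, and by total counts the log2 fold changes of the large and small subunit sums, 0.25 and 0.24 as reported, were -0.030 and -0.038.

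Signs changed in genes that were not called. MRPL51 was at -0.28 with library size alone, -0.092 at 5 CPM, -0.051 with protein-coding genes only and -0.12, -0.079 and -0.030 without BP 2, BP+Huaier 1 and BP+Huaier 2, and reached 0.14 without BP+Huaier 3. MRPS35 was at -0.13 with library size alone, and MRPS18B at 0.027 without BP+Huaier 3 and -0.23 without BP+Huaier 1. MRPL12 was at -0.18 with library size alone, -0.19 and -0.19 after GC and length removal without and with the block, and -0.14 and -0.20 without BP 2 and BP+Huaier 1, against 0.42 without BP+Huaier 3. MRPL3 was at 0.065 and 0.057 after that removal, and GABPA at 0.010 and 0.0020. PPARGC1B was at -0.17 with library size alone, -0.021 at 5 CPM and -0.18 to 0.19 with 1 library left out (BP+Huaier 3 and 2), NRF1 at -0.048 and GABPB1 at -0.038 with library size alone.

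MRPL53 and MRPS24 had too few counts to be tested, and the reason was not examined.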

Other observations

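Many genes of the family lie head to head with another gene. Of the 76 tested, 28 (36.8%) had a protein-coding gene starting on the opposite strand within 1000 bases, against 18% of the 12459 tested protein-coding genes. Of the 28 neighbours 25 were tested, and 3 were called higher and 5 lower, where 29.4% of protein-coding genes were called (edgeR, adjusted p under 0.05). The 3 called higher were TMEM63B, IGHMBP2 and NCAPD2, beside MRPL14, MRPL21 and MRPL51. Their log2 fold changes were 0.49, 0.64 and 0.42, and those of the ribosomal genes 0.43, 0.24 and 0.003. The examples below were chosen after their values were seen, and the called neighbours among them all fell.

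Neighbours moved apart from the ribosomal gene in several pairs. PPP1R10, a regulatory subunit of protein phosphatase 1, averaged 14.3 ± 5.05 CPM in BP+Huaier and 72.4 ± 4.21 CPM in BP (SD, n = 3 each; edgeR adjusted p = 8.9e-04), while its neighbour MRPS18B had a log2 fold change of -0.08. ZNF189, a zinc finger gene, averaged 3.04 ± 1.44 CPM in BP+Huaier and 13.8 ± 0.99 CPM in BP (edgeR adjusted p = 0.0022), beside MRPL50 at 0.04. PTCD2, a mitochondrial pentatricopeptide repeat gene, averaged 20.9 ± 4.57 CPM in BP+Huaier and 44.0 ± 6.48 CPM in BP (edgeR adjusted p = 0.0051), beside MRPS27 at 0.04. MRPS18C and its neighbour HELQ, a DNA helicase gene whose start lies 77 bases away, were both called lower: HELQ averaged 1.45 ± 0.62 CPM in BP+Huaier and 5.13 ± 0.39 CPM in BP (edgeR adjusted p = 0.0048). In 1 pair both genes are of the family: MRPL46 and MRPS11, 63 bases apart, had log2 fold changes of 0.63 ± 0.31 and -0.16 ± 0.23 and neither was called (edgeR adjusted p = 0.16 and 0.64).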
